A study of Mus musculus with 6 samples.

Results

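The genes of fibroblast growth factor (FGF) signalling were read out in whole embryonic hearts in which the transcription factor gene Wt1 had been deleted in the cardiac troponin lineage. The genes were taken by name from the deposited count table: the Fgf ligands, the receptors Fgfr1 to Fgfr4 and Fgfrl1, the adaptors Frs2 and Frs3, the Spry and Spred inhibitors, the phosphatase gene Dusp6 and the transcription factors Etv1, Etv4 and Etv5. This gave 39 of the 46983 genes listed. Spry3 was not analysed here. The 3 mutant hearts (replicates 1, 5 and 10) came from E13.5 embryos of the genotype TnnT2Cre;Wt1flox, and the 3 hearts labelled wild type (replicates 2, 3 and 5) from embryos of the same C57BL/6 x DBA/2 background. According to the study's methods the wild type embryos carried no Cre but were also homozygous for the floxed Wt1 allele, so the floxed allele is common to both groups and Cre differs between them. Tnnt2 Cre recombines in nearly all of the myocardium and, according to the study's reporter embryos, also in part of the epicardium. Each library held the RNA of 1 heart.

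FGFs are secreted proteins that bind receptor tyrosine kinases together with heparan sulfate and pass their signal through the Frs adaptors, RAS and the kinase ERK to the nucleus. Active signalling switches on its own brakes, the Sprouty and Spred proteins and the ERK phosphatase DUSP6, and the Etv transcription factors, so the RNA of these genes is widely used as a readout of the pathway. In the midgestation heart, FGF9 and related ligands from the epicardium and endocardium act on receptors 1 and 2 of the cardiomyocytes and support their proliferation.

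The libraries held between 44244665 and 56373393 counts. Levels within a gene are given as CPM (counts of a gene relative to the library total) scaled by the trimmed mean of M-values (TMM), and levels between genes as the deposited FPKM, which also divide by a length. Wt1, the targeted gene, was at 40.0, 32.9 and 19.97 CPM in wild type replicates 2, 3 and 5 and at 17.7, 33.3 and 35.7 CPM in mutant replicates 1, 5 and 10. The groups overlapped, so the gene-level count of Wt1 in the whole heart did not check the labels. All 8 cardiomyocyte markers were above 3 counts in every heart. Tnnt2 was at 3875 to 4010 CPM in wild type and 4134 to 4483 CPM in mutant hearts, without overlap. Its log2 fold change was 0.11 (edgeR unadjusted p = 0.383). Of the 8, Myl7 alone had an unadjusted p under 0.05, lower in the mutant (log2 fold change -0.48, edgeR unadjusted p = 0.0453). Except for Tnnt2, the groups of these markers overlapped. The hearts differed in other cells as well. Summed epicardium markers, with 12 of 12 detected, overlapped, at 325 to 587 CPM in wild type and 375 to 650 CPM in mutant hearts. At an unadjusted p under 0.05 in edgeR, 4 of the 12 were higher in the mutant (Krt8, Upk1b, Krt18 and Msln) and 1 was lower (Tcf21). Their log2 fold changes were 1.13, 0.96, 0.56, 0.61 and -1.10. Of all genes tested, 3.14% were higher and 2.59% lower at that threshold. Summed macrophage markers, with 6 of 6 detected, were at 59.5 to 68.5 CPM in wild type and 85.3 to 97.7 CPM in mutant hearts. With an unadjusted p under 0.05, edgeR gave 5 of the 6 as higher (Cd68, Csf1r, Adgre1, Lyve1 and C1qa). Mrc1 was not among them, with a log2 fold change of -0.19 and overlapping groups. Summed sinus venosus and node markers, with 5 of 5 detected, were at 138 to 169 against 124 to 131 CPM. At that threshold 3 of the 5 (Shox2, Tbx3 and Isl1) were lower. The groups of Hcn4 (log2 fold change 0.08) and Tbx18 (-0.10) overlapped. The sum of the fibroblast and valve mesenchyme markers, with 6 of 6 detected, was 1032 to 1434 against 1459 to 2089 CPM, but its members differed in direction: Col1a1 had a log2 fold change of 0.95 and Tcf21 of -1.10, and the groups of the other 4 overlapped. The sum of 4 lung mesenchyme and body wall markers, 88.5 to 96.7 against 70.1 to 87.5 CPM, consisted mostly of Tbx5, a gene also expressed in the heart, whose groups overlapped. In that list the groups of Wnt2 alone were apart. Of 8 lung and foregut epithelium markers, 4 were above 3 counts in every heart. Nkx2-1 had 64 and 65 counts in wild type replicate 5 and mutant replicate 5 and 0 to 8 elsewhere. Epcam had 267 and 264 counts in these hearts and 10 to 37 elsewhere. In this list Cldn3 and Irx1 were higher in the mutant with groups apart, Cldn3 with a log2 fold change of 3.15 (edgeR adjusted p = 0.0991). A DESeq2 adjusted p under 0.05 was reached by 0.69% of all genes. Of the markers in all lists, Cldn3 (2.77e-15), Shox2 (2.05e-09), Tcf21 (1.6e-07), Krt8 (2.44e-04), C1qa (3.01e-04), Wnt2 (0.025) and Col1a1 (0.0498) reached it. The other markers did not. None of these markers was at 0 in every heart. Their part in the results below was not tested, and in whole hearts fewer cells of a type cannot be told apart from less RNA per cell.

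Transcripts of most FGF pathway genes were found at moderate levels. Of the 39 genes, 25 had a mean over 1 FPKM across the 6 hearts. Fgfrl1, which encodes an FGF receptor without a tyrosine kinase domain, was the receptor with the highest level, at 49.5 ± 5.99 FPKM (SD, n = 6). Fgfr1 followed at 26.5 ± 3.51 FPKM, Fgfr2 at 18.1 ± 3.30 FPKM and Fgfr3 at 4.67 ± 0.527 FPKM. Fgfr4 was lowest, at 1.25 ± 0.470 FPKM. The ranges of neighbours in this order did not overlap, and each receptor was above the next in 6 of 6 hearts. As a share of the summed receptor FPKM, Fgfrl1 made up 49.6 ± 2.12%, Fgfr1 26.5 ± 0.880% and Fgfr2 18.0 ± 2.18% (SD, n = 6). The order of the first 2 depended on the length used: by CPM, which ignores length, Fgfr1 had the larger share, 37.7% against 34.4% for Fgfrl1.

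Among the ligand genes Fgf13 stood highest, at 45.5 ± 4.07 FPKM (SD, n = 6). It encodes an intracellular FGF homologous factor that is not secreted and binds voltage-gated sodium channels. The most abundant secreted ligand was Fgf1, at 11.7 ± 1.46 FPKM, followed by Fgf9 at 7.40 ± 0.729 FPKM and Fgf2 at 4.36 ± 1.39 FPKM. The ranges of Fgf13, Fgf1 and Fgf9 were apart from each other. Fgf9 lay above Fgf2 in 6 of 6 hearts although their ranges met, whereas Fgf2 and Fgf11 (3.94 ± 0.519 FPKM) were not separated by the spread between hearts. Fgf18 (2.91 FPKM), Fgf12 (2.66 FPKM) and Fgf10 (1.20 FPKM) were the only other ligand genes with a mean over 1 FPKM. The remaining ligand genes ranged from 0.895 FPKM for Fgf5 down to Fgf20, which had 0 counts in every heart. With 3 counts as the limit that a count of 0 allows, Fgf20 could have been present at up to 0.0522 to 0.0682 CPM, depending on the heart, and this limit covers counting error only.

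**Figure D1:**
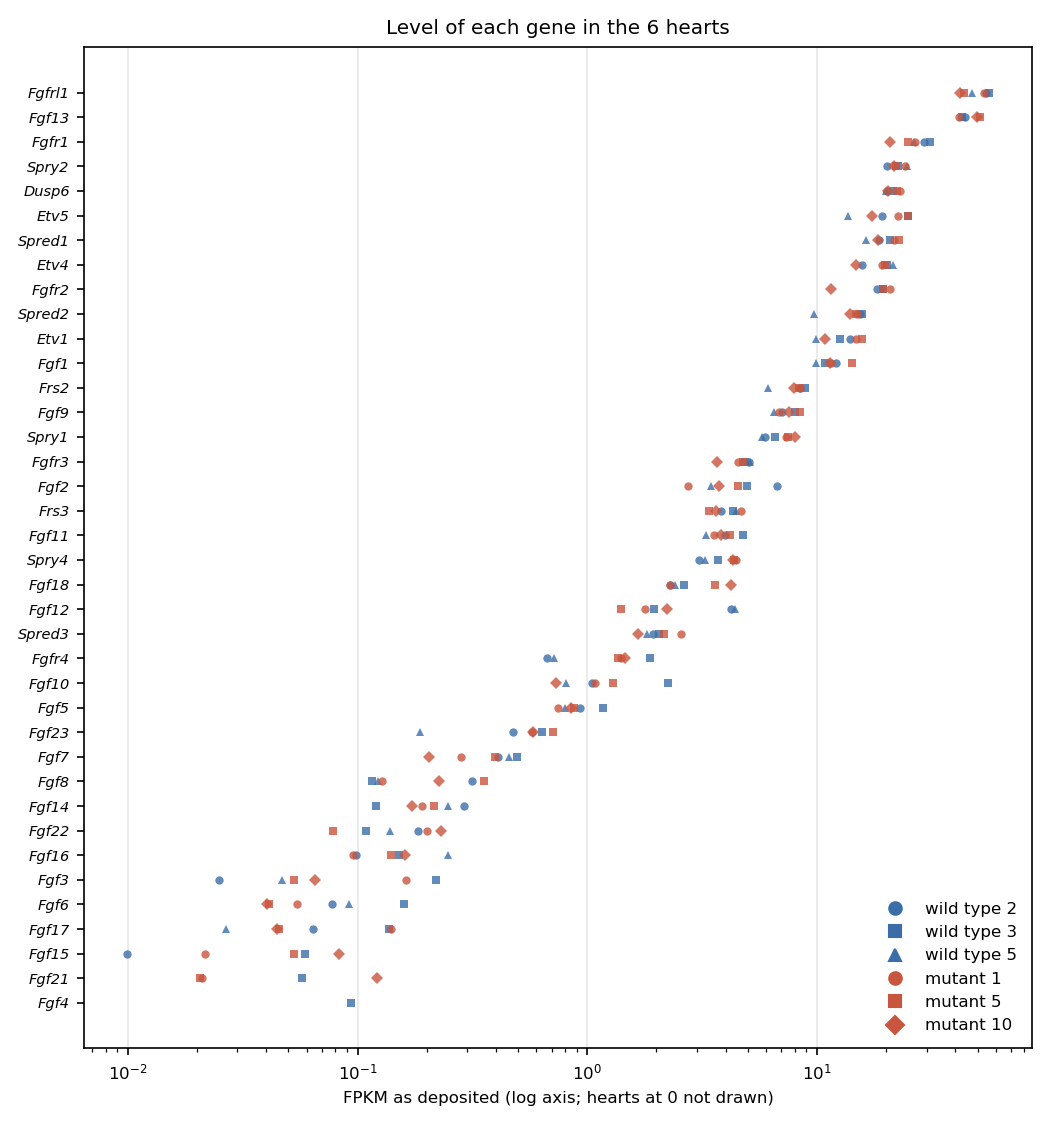
FPKM of each gene on a log axis, 1 point per heart (blue, wild type; red, mutant; the marker shape gives the replicate). Fgfrl1 and Fgf13 lead with means of 49.5 and 45.5 FPKM, 25 genes have a mean over 1 FPKM, and Fgf20, at 0 in every heart, is not drawn.

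In the comparison of mutant with wild type hearts, none of these genes passed an adjusted p of 0.05 in edgeR's quasi-likelihood test, and neither did any of the 17473 genes tested (0%). Of the 39 genes, 32 had enough counts to be tested and of these the mutant hearts had 17 at a higher and 15 at a lower level. The median log2 fold change of the 32 was 0.077, against -0.001 over all genes. DESeq2 called 133 of 19282 genes (0.69%) at an adjusted p of 0.05, but none of these 39, and limma-voom called none. At an unadjusted p of 0.05, edgeR marked 4 of the 32 (12.5%) against 5.73% of all genes: Spry4 and Spry1 higher (3.14% of all genes), Fgf12 and Fgf6 lower (2.59%). In 7 of the 32 (21.9%) the CPM of the groups did not overlap, against 11.2% of all genes. These were Spry1, Spry4 and Dusp6, higher in the mutant (6.61% of all genes), and Fgf6, Fgf7, Fgfr1 and Fgfr3, lower (4.59% of all genes). The 95% intervals of the log2 fold changes had a median half-width of 0.392. The smallest half-width was 0.204. With 3 hearts per group, a difference below a gene's own half-width did not reach even an unadjusted p of 0.05. At the adjusted threshold larger differences also went uncalled, such as -0.93 for Fgf12 (edgeR adjusted p = 0.762), so 0.392 is not the size above which differences were found.

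**Figure D2:**
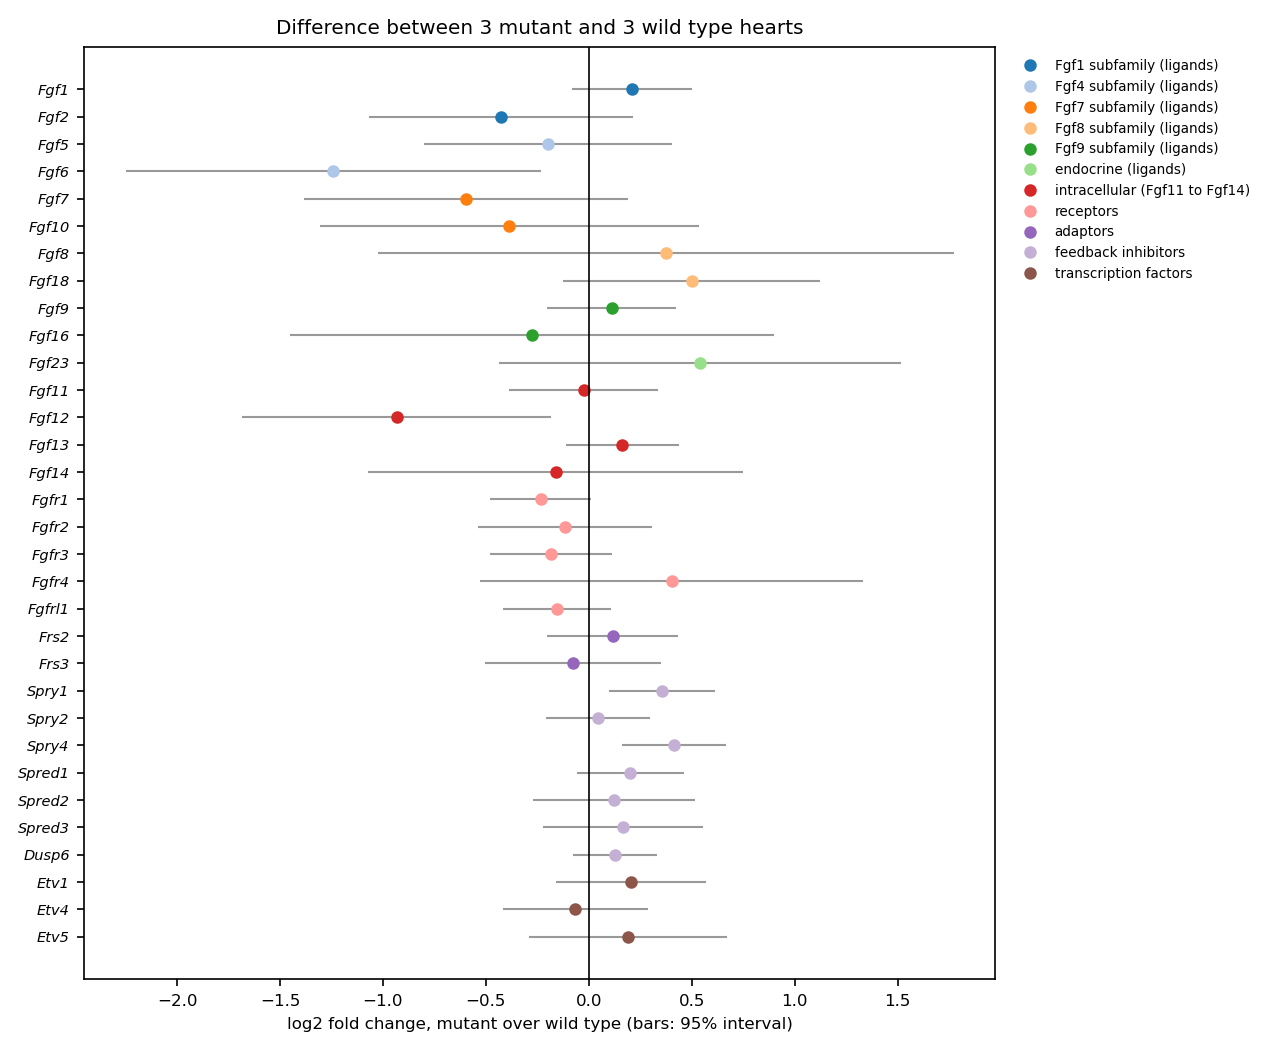
Log2 fold change of mutant over wild type (horizontal axis) for the 32 genes tested, coloured by role, with 95% intervals from edgeR's quasi-likelihood fit. The 7 feedback inhibitors lie above 0, between 0.04 and 0.42, while 4 of the 5 receptors lie below it; the intervals of Spry1, Spry4, Fgf12 and Fgf6 alone leave out 0.

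The feedback inhibitors all lay on 1 side of 0. All 7 were higher in mutant hearts, by a median of 0.165 on the log2 scale, where 49.8% of all genes were higher, and 3 of the 7 had groups that did not overlap, as had 6.61% of all genes in that direction. None passed the adjusted threshold. The 7 genes were measured in the same hearts, so they are not independent of each other. Whether they share an upstream signal in these hearts was not tested.

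Spry4 was the member with the smallest p. It encodes a Sprouty protein that restrains RAS and ERK activation downstream of receptor tyrosine kinases. Its level was 13.9, 16.7 and 15.1 CPM in wild type replicates 2, 3 and 5 and 20.1, 19.9 and 20.9 CPM in mutant replicates 1, 5 and 10. All 3 mutant hearts were above all wild type hearts, and they lay within 1 CPM of each other. The log2 fold change was 0.42 (SE 0.11; edgeR adjusted p = 0.547, unadjusted p = 0.00522), and it kept its sign in 6 of 6 fits that left out 1 heart, with an unadjusted p under 0.05 in 6 of them.

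Spry1, a second Sprouty gene, was at 15.1, 16.6 and 14.9 CPM in wild type and 18.6, 19.2 and 21.7 CPM in mutant hearts. The groups were again apart. The log2 fold change was 0.35 (SE 0.11; edgeR adjusted p = 0.688, unadjusted p = 0.0133), with an unadjusted p under 0.05 in 5 of the 6 fits without 1 heart. The gene lies on chromosome 3 (GRCm38, 37639947 to 37644598, plus strand). Of its exon bases, 24.4% overlap Gm42922 on the opposite strand. The strand setting of the counting is not given in the sources used here, and Gm42922 had 6, 14 and 13 counts in wild type and 4, 8 and 3 in mutant hearts.

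Dusp6, whose product removes the activating phosphates from ERK, was about 3 times as abundant as Spry1 by FPKM, at 21.2 ± 1.27 against 6.86 ± 0.902 FPKM (SD, n = 6). In wild type hearts it was at 55.6, 58.7 and 55.9 CPM, and in mutant hearts at 63.2, 62.3 and 60.2 CPM. The groups did not overlap, but the distance between them was small. The log2 fold change was 0.12 (SE 0.09, 95% interval -0.08 to 0.33; edgeR adjusted p = 0.979). Spry2, the most abundant Sprouty gene at 22.5 FPKM, showed no such separation. It was at 41.6, 45.9 and 51.4 CPM in wild type and 49.5, 46.1 and 47.6 CPM in mutant hearts, with a log2 fold change of 0.04 (95% interval -0.21 to 0.29), and its sign turned without wild type replicate 2 (-0.03).

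The Spred genes encode membrane-bound relatives of the Sprouty proteins that restrain RAS signalling. Their log2 fold changes were 0.20 for Spred1, 0.12 for Spred2 and 0.17 for Spred3, with overlapping groups. Wild type replicate 5 was the lowest heart for Spred1 and Spred2. Without it Spred1 was at 0.13 and Spred2 at -0.06, and 6 of the 7 inhibitors were then higher in the mutant, as also without wild type replicate 2. In wild type replicate 5, longer genes were low relative to the mean of all hearts (rho = -0.56 across 11795 genes, a description over genes, which are not replicates), whereas in the other hearts this value lay between -0.06 and 0.46. With an offset for this length trend, all 7 inhibitors stayed higher in the mutant, with a median of 0.11. Spry4 was then at 0.322 (edgeR unadjusted p = 0.0489, adjusted p = 0.734). Spry1 was at 0.315 (edgeR unadjusted p = 0.0179, adjusted p = 0.611).

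**Figure D3:**
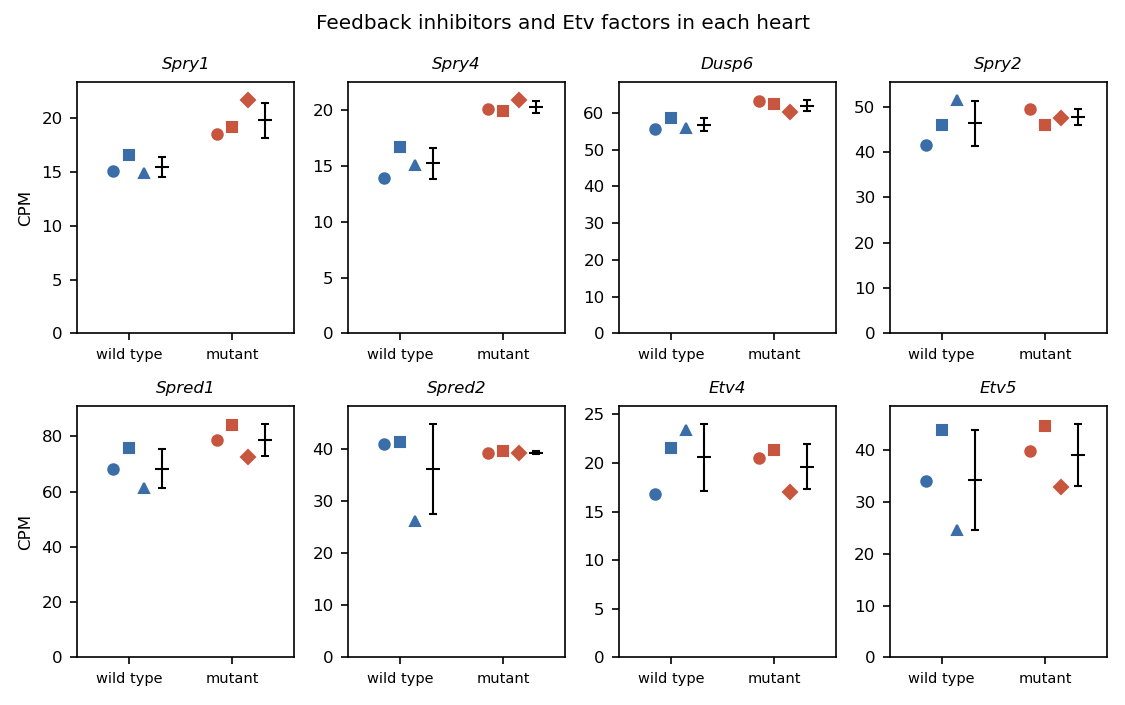
CPM of 6 feedback inhibitors and of Etv4 and Etv5, 1 point per heart (blue, wild type; red, mutant) with the mean and SD of 3 hearts in black. In Spry1, Spry4 and Dusp6 the mutant hearts lie above all wild type hearts, at 18.6 to 21.7 CPM, 19.9 to 20.9 CPM and 60.2 to 63.2 CPM, whereas in the other genes the groups overlap.

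The sequences before the start sites of Spry1, Dusp6 and Fgfrl1 are shown because the first 2 are inhibitors whose groups did not overlap and the third is the receptor gene with the highest level. Each is the 250 bases upstream of the RefSeq start (build GRCm38.p6, plus strand): chr3:37639697-37639946 for Spry1, chr10:99262981-99263230 for Dusp6 and chr5:108693979-108694228 for Fgfrl1. Capitals mark the letters CGGAAG, a core bound by ETS factors such as the Etv proteins, and GCGGGGGCG or GCGTGGGCG, forms bound by WT1 and the EGR factors, on either strand.
Spry1: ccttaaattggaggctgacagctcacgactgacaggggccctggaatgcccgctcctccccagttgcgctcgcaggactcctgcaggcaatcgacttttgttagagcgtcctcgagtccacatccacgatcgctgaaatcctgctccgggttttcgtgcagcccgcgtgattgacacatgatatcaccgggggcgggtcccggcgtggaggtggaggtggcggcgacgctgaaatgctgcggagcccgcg
Dusp6: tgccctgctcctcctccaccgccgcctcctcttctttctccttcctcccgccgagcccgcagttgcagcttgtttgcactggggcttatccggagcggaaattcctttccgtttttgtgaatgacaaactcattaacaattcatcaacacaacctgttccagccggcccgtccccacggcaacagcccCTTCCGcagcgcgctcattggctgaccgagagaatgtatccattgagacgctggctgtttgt
Fgfrl1: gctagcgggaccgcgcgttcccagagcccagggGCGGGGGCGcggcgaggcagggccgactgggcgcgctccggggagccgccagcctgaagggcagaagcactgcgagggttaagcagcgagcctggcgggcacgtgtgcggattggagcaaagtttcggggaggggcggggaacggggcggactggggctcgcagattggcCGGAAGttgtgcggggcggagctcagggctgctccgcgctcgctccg
The ETS core began 62 bases before the start in Dusp6 and 47 bases before it in Fgfrl1, and the WT1 and EGR form 217 bases before it in Fgfrl1. The Spry1 window held neither. The windows of Spry1 and Dusp6 end directly before the GENCODE starts of these genes. The Fgfrl1 window lies within the GENCODE gene (108692382 to 108706924, plus strand), so the RefSeq start used for it is downstream of the GENCODE start. In the RefSeq table, 30 of the 39 genes had a promoter, 39 promoters in all. The ETS core was present in 8 of these 39 and in 13.6% of all 32851 promoters of that length. The WT1 and EGR forms were present in 3 of the 39, those of Fgf2, Fgfr3 and Fgfrl1, and in 3.06% of all promoters. A match describes the letters and does not show a bound site, and the motifs searched do not overlap each other.

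The Etv factors, activators of the ETS family that FGF signalling induces, showed no separation of the groups. Etv4 was at 16.8, 21.5 and 23.4 CPM in wild type and 20.5, 21.3 and 17.0 CPM in mutant hearts. Etv5 was at 34.1, 44.01 and 24.7 CPM in wild type and 39.8, 44.7 and 32.9 CPM in mutant hearts. For both genes the spread within each group was larger than the distance between the groups. The log2 fold changes were -0.07 for Etv4 (95% interval -0.42 to 0.28), 0.19 for Etv5 (-0.29 to 0.67) and 0.20 for Etv1 (-0.16 to 0.57). The Etv5 value came to 0.004 without wild type replicate 5.

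Whether the 6 readout genes varied together from heart to heart was examined over 15 pairs of Spry1, Spry2, Spry4, Dusp6, Etv4 and Etv5, with exact permutation tests over the 720 orders of 6 hearts. In the 3 pairs among Spry1, Spry4 and Dusp6 both genes separated the groups, so no pooled correlation is given for them. In the other 12 pairs Pearson's r ranged from -0.393 to 0.659 and Spearman's rho from -0.486 to 0.486, and the smallest adjusted p of the exact permutation tests was 0.512 for r and 0.746 for rho (two-sided, Benjamini-Hochberg over 15 pairs). Dusp6 and Etv5 had the highest r, 0.659 (exact permutation p = 0.149), which came to 0.0887 without wild type replicates 2 and 5. Without the 2 hearts farthest from the median, r changed sign in 3 of the 12 pairs.

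Of the receptors, Fgfr1 came nearest to the threshold. Fgfr1 encodes a main FGF receptor of the myocardium. It was at 71.5, 75.3 and 66.2 CPM in wild type and 64.9, 61.7 and 54.6 CPM in mutant hearts. The highest mutant heart lay just below the lowest wild type heart. The log2 fold change was -0.23 (SE 0.11, 95% interval -0.48 to 0.01; edgeR adjusted p = 0.898, unadjusted p = 0.0584). With the length offset it was -0.27 (edgeR unadjusted p = 0.016, adjusted p = 0.591), in a fit where 6.79% of all genes had an unadjusted p under 0.05. Its share of the summed receptor FPKM was 27.1, 27.4 and 26.8% in wild type and 24.9, 26.5 and 26.3% in mutant hearts, also without overlap. The gene lies on chromosome 8 (GRCm38, 25513654 to 25575718, plus strand).

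Fgfr3 was at 10.9, 10.45 and 11.2 CPM in wild type and 9.75, 10.40 and 8.49 CPM in mutant hearts, with mutant replicate 5 only just below wild type replicate 3. The log2 fold change was -0.18 (SE 0.13; edgeR adjusted p = 0.976). Of its exon bases, 13.9% overlap G630022F23Rik on the opposite strand, which had at most 2 counts in a heart. Fgfr2, the receptor of FGF7 and FGF10 in its epithelial splice form, was at 36.7, 38.4 and 39.0 CPM in wild type and 41.5, 39.0 and 24.7 CPM in mutant hearts. Mutant replicate 10 was thus far below the other 5 hearts, and without it the log2 fold change turned from -0.12 to 0.08. Mutant replicate 10 also had the highest sum of the 4 erythroid markers, 14920 CPM. Wild type replicate 5, with Fgfr2 at 39.0 CPM, followed with 12360 CPM of these markers, and the remaining hearts had 3079 to 4487 CPM. The part of erythroid cells in the Fgfr2 value was not tested.

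Fgfrl1 was at 64.8, 66.4 and 57.7 CPM in wild type and 63.6, 52.8 and 53.2 CPM in mutant hearts, with overlapping groups and a log2 fold change of -0.16 (95% interval -0.42 to 0.11). Fgfr4 was the receptor that was higher in the mutant, with a log2 fold change of 0.40 (95% interval -0.53 to 1.33). Setting Fgfr4 apart because it was higher left 4 receptors that were all lower by that choice. They were also lower in each of the alternative fits except that without mutant replicate 10, where 3 were. These fits reuse the same hearts and are no separate support, and in the main fit the 95% intervals of all 4 include 0. Of the adaptors, which link the receptors to RAS, Frs2 had a log2 fold change of 0.12 and Frs3 of -0.08, with overlapping groups.

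**Figure D4:**
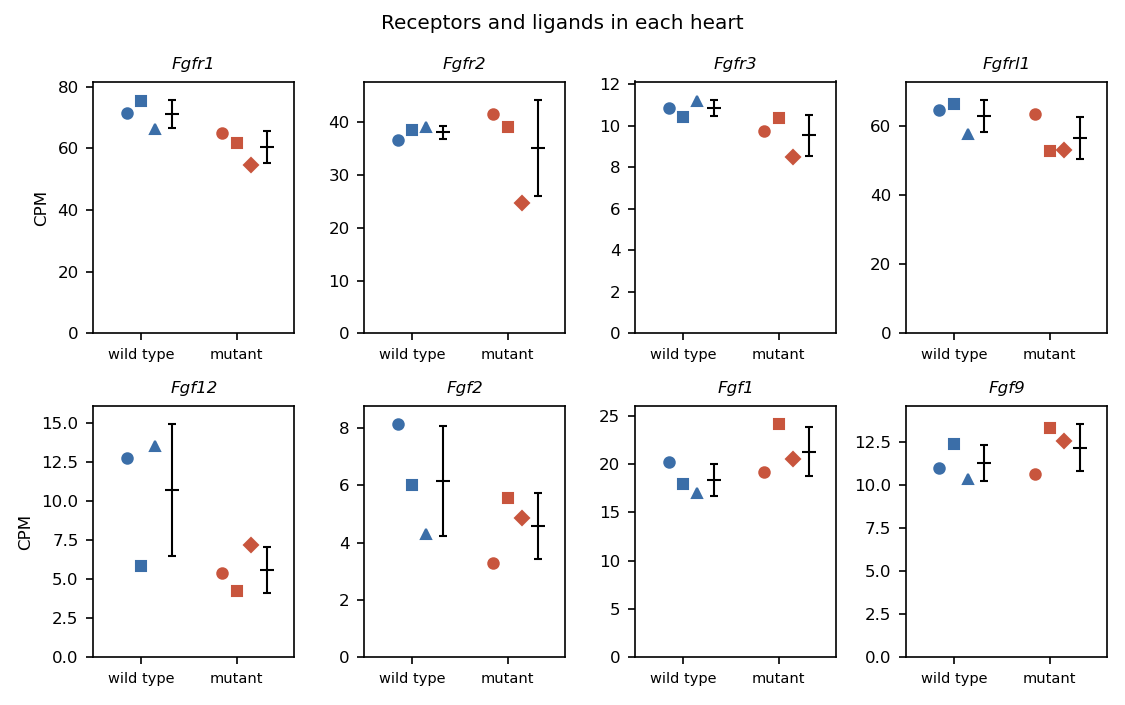
CPM of 4 receptors (upper row) and 4 ligand genes (lower row), 1 point per heart (blue, wild type; red, mutant) with the mean and SD of 3 hearts in black. Fgfr1 is lower in all mutant hearts, at 54.6 to 64.9 against 66.2 to 75.3 CPM, Fgfr2 is low in mutant replicate 10 alone, and wild type replicate 3 lies among the mutant hearts for Fgf12.

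Of the 15 ligand genes tested, 6 had higher and 9 had lower levels in mutant hearts (median -0.162 on the log2 scale). Among the ligand genes with a mean over 1 FPKM, the largest difference was that of Fgf12, an intracellular homologous factor that, like Fgf13, binds sodium channels. It was at 12.8, 5.88 and 13.496 CPM in wild type and 5.37, 4.27 and 7.17 CPM in mutant hearts. The value of wild type replicate 3 fell within the mutant range, while the other wild type hearts lay above every mutant heart. The log2 fold change was -0.93 (SE 0.33; edgeR adjusted p = 0.762, unadjusted p = 0.0206), and it ranged from -1.23 without wild type replicate 3 to -0.73 without wild type replicate 5. The gene lies on chromosome 16 (GRCm38, 28160098 to 28753068, minus strand). Fgf13 was at 47.8, 46.0 and 48.0 CPM in wild type and 44.8, 56.3 and 57.6 CPM in mutant hearts, a log2 fold change of 0.16 with overlapping groups. The difference between Fgf12 and Fgf13 was not tested.

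The groups of the abundant secreted ligands overlapped. Fgf1, which binds all FGF receptors, was at 20.2, 18.0 and 17.0 CPM in wild type and 19.2, 24.1 and 20.5 CPM in mutant hearts, a log2 fold change of 0.21 (95% interval -0.08 to 0.50). Fgf9, the epicardial and endocardial mitogen of the myocardium, was at 11.0, 12.4 and 10.4 CPM in wild type and 10.6, 13.3 and 12.5 CPM in mutant hearts. Its log2 fold change was 0.11 (95% interval -0.20 to 0.42), so a doubling or halving lay outside the interval. Fgf2 was highest in wild type replicate 2 and lowest in mutant replicate 1, and its log2 fold change was -0.43 (95% interval -1.07 to 0.21), so a halving lay within the interval. The Fgf2 value depended on single hearts: leaving out wild type replicate 2 gave -0.17, mutant replicate 1 gave -0.24 and wild type replicate 5 gave -0.63 (unadjusted p = 0.0296, edgeR adjusted p = 0.34). With Xist as a covariate it was -0.64 (unadjusted p = 0.00936, edgeR adjusted p = 0.766). Of the Fgf2 exon bases, 9.44% overlap Nudt6 on the opposite strand, and the strand setting of the counting is not given. Nudt6 had 139, 100 and 125 counts in wild type and 182, 143 and 160 in mutant hearts. Fgf2 itself had 458, 346 and 189 counts in wild type and 172, 291 and 245 in mutant hearts. The part of Nudt6 reads in the Fgf2 value was not tested.

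Fgf18, the most abundant ligand of the FGF8 subfamily, was at 2.34, 2.70 and 2.52 CPM in wild type and 2.33, 3.74 and 4.63 CPM in mutant hearts, with a log2 fold change of 0.50 (95% interval -0.12 to 1.12). Mutant replicate 1 was at the wild type level and the other mutant hearts were above it, so that the value went to 0.73 when mutant replicate 1 was left out and to 0.27 when mutant replicate 10 was. Fgf7, a mesenchymal ligand for epithelial receptors, was at 0.781, 0.939 and 0.886 CPM in wild type and 0.539, 0.763 and 0.417 CPM in mutant hearts. The groups did not overlap, and the log2 fold change was -0.60 (SE 0.34; edgeR adjusted p = 0.946). Fgf5 was at 1.42, 1.77 and 1.25 CPM in wild type and 1.14, 1.35 and 1.39 CPM in mutant hearts, with overlapping groups. Fgf23, the hormone of phosphate balance, was at 0.852, 1.13 and 0.341 CPM in wild type and 1.02, 1.278 and 1.11 CPM in mutant hearts, a log2 fold change of 0.54 (95% interval -0.44 to 1.52). Wild type replicates 2 and 5 were below the mutant hearts and wild type replicate 3 was among them. Leaving out wild type replicate 5 moved the Fgf23 value to 0.20, and leaving out wild type replicate 3 moved it to 0.91. Fgf8, Fgf11, Fgf14 and Fgf16 had log2 fold changes between -0.28 and 0.37 with overlapping groups.

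Wild type replicate 3 stood apart in genes of skeletal muscle, and Fgf4, Fgf6, Fgfr4 and Fgf10 were among the genes highest in it. The summed CPM of Myod1, Myog and Pax7, the regulators that define skeletal muscle cells, was 28.2 in wild type replicate 3, 3.21 and 2.82 in wild type replicates 2 and 5, and 1.85, 2.35 and 1.03 in the mutant hearts. Of these 3 markers, 2 were above 3 counts in every heart and none was at 0 throughout. Fgf6, a ligand known from developing and regenerating skeletal muscle, was at 0.355, 0.730 and 0.432 CPM in wild type and 0.250, 0.191 and 0.199 CPM in mutant hearts. Fgf6 was lower in all mutant hearts, with a log2 fold change of -1.24 (SE 0.44; edgeR adjusted p = 0.763, unadjusted p = 0.0218), and -0.87 (unadjusted p = 0.129) without wild type replicate 3.

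Fgf4, described here after its values were seen, had 16 counts in wild type replicate 3 and 0 counts in the other 5 hearts. Fgfr4, the receptor typical of myogenic cells, was at 0.959, 2.68 and 1.05 CPM in wild type and 2.00, 1.97 and 2.24 CPM in mutant hearts. The other wild type hearts were below every mutant heart, and without wild type replicate 3 the log2 fold change of Fgfr4 went from 0.40 to 1.05 (unadjusted p = 0.00632, edgeR adjusted p = 0.671), where 5.05% of all genes had an unadjusted p under 0.05. Fgf10, a mesenchymal ligand of the second heart field and of limb and lung, was at 1.79, 3.83 and 1.41 CPM in wild type and 1.83, 2.23 and 1.33 CPM in mutant hearts, and its log2 fold change turned from -0.39 to 0.17 without that heart. The skeletal muscle markers were highest in the same heart as these 4 genes. The 4 were grouped here because that heart was their highest, so this match was set by the choice. Other genes of the set, among them Fgf5, Fgf11, Fgfr1 and Fgfrl1, were also highest in wild type replicate 3. The part of skeletal muscle cells in the values was not tested.

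**Figure D5:**
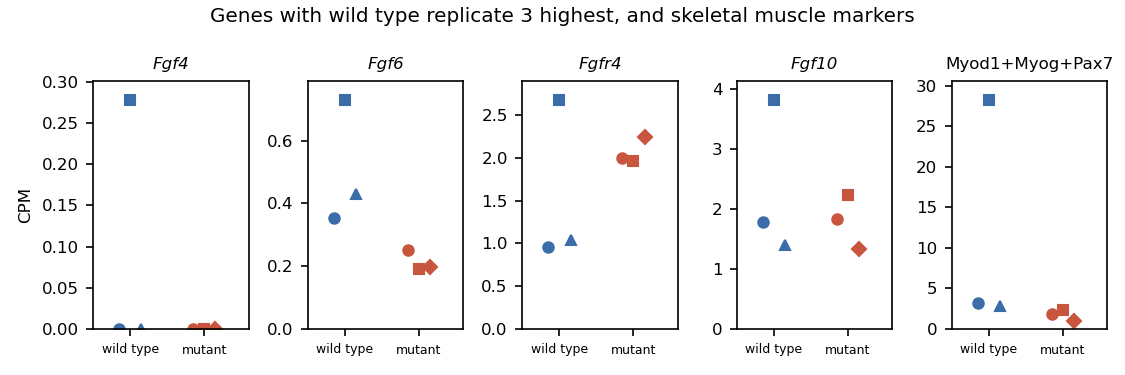
CPM of Fgf4, Fgf6, Fgfr4 and Fgf10 and the summed CPM of 3 skeletal muscle markers, 1 point per heart (blue, wild type; red, mutant; squares, replicate 3 of the wild type and replicate 5 of the mutant). The blue square, wild type replicate 3, is highest in every panel, with 28.2 CPM of the markers against at most 3.21 CPM in the other hearts.

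The 7 genes not tested for low counts were all ligands. Besides Fgf4 and Fgf20 these were Fgf3, Fgf15, Fgf17, Fgf21 and Fgf22, with between 0 and 18 counts per heart. Fgf3 had its highest count, 18, in wild type replicate 3, and 12 in mutant replicate 1. Fgf15, the mouse counterpart of FGF19, and Fgf21 are endocrine FGFs and had at most 8 and 6 counts in a heart.

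Other genes of the pathway were examined as a list of 56, of which 54 were tested. Of these, 36 had higher and 18 had lower levels in mutant hearts, with a median of 0.094 on the log2 scale. None passed an adjusted p of 0.05 in edgeR's quasi-likelihood test or in DESeq2. An unadjusted p under 0.05 was reached by 3 of the 54 (5.56%), close to the 5.73% of all genes, and all 3 were higher in the mutant (3.14% of all genes). In 9 of the 54 (16.7%) the mutant hearts were all higher and in 1 (1.85%) all lower, against 6.61% and 4.59% of all genes. Egr1, an immediate early zinc finger factor, was at 11.6, 14.4 and 11.6 CPM in wild type and 22.5, 18.0 and 16.8 CPM in mutant hearts, with a log2 fold change of 0.61 (SE 0.15; edgeR adjusted p = 0.488, unadjusted p = 0.004). Fos, an immediate early subunit of AP-1, was at 3.73, 4.05 and 3.25 CPM in wild type and 6.46, 4.41 and 8.43 CPM in mutant hearts, with a log2 fold change of 0.80 (SE 0.25; edgeR adjusted p = 0.667). Ier3, a further early response gene, was at 15.6, 17.5 and 21.8 CPM in wild type and 23.3, 22.8 and 23.9 CPM in mutant hearts, with a log2 fold change of 0.35 (SE 0.14; edgeR adjusted p = 0.827).

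In Egr1, Fos and Ier3 the groups did not overlap, and these 3 are among the 9 genes above. They respond to many stimuli besides FGF, and the other 10 response genes of the list, Il17rd, Dusp4, Dusp5, Dusp7, Ier2, Phlda1, Myc, Ccnd1, Cic and Erf, had log2 fold changes between -0.18 and 0.13. Among the 21 genes of the intracellular relay 15 were higher and 6 lower with a median of 0.09. Map2k1, the kinase that activates ERK, had the smallest p of the relay genes (log2 fold change 0.20, edgeR adjusted p = 0.912). Of the 20 co-receptor and heparan sulfate genes tested, 12 were higher and 8 lower with a median of 0.044.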

How the data were processed

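RNA-seq of 6 whole E13.5 hearts was analysed, 3 labelled wild type and 3 mutant. According to the study's methods, the authors trimmed paired-end reads, aligned them with STAR and assigned uniquely mapped reads to genes with featureCounts, while the labels name HTSeq and DESeq2. The authors deposited raw gene counts. They also deposited FPKM values, each of which equals the count over one length per gene and over the library total (relative deviations of at most 6.2e-14). Depth was 44244665 to 56373393 counts per heart, and 0 sample columns were left unmapped.

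Genes were filtered with filterByExpr (minimum count 10, minimum total 15), normalised by TMM and tested two-sided with edgeR's quasi-likelihood test (edgeR 4.0.16, R 4.3.3), with Benjamini-Hochberg adjustment over 17473 genes and a threshold of 0.05. Code was tested on simulated data. Alternatives were DESeq2 1.42.0, limma-voom (limma 3.58.1), RLE size factors, other count filters, robust dispersion, a loess offset for gene length (span 0.5), Xist as a covariate, and leaving out each heart in turn. The p-values of the comparison weigh each difference against the spread between hearts of a group, estimated with information shared across genes. Intervals cover counting error and that spread only. The limit given for Fgf20 covers counting error only. Positions are from GENCODE M21 (GRCm38) and promoters from RefSeq (GRCm38.p6).

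The genes, the pathway list and the marker lists were chosen with earlier results of these data known. Values are given for every heart for genes with an unadjusted p under 0.05 or groups that do not overlap, for the receptors, for Spry1, Spry2, Spry4, Dusp6, Etv4 and Etv5, and for the most abundant ligand of each subfamily. Correlations were tested with SciPy 1.17.1.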

Additional observations from a re-analysis of the deposited data

How the results depend on the processing

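None of the FGF genes fitted passed an adjusted p of 0.05 under any of the 15 alternatives, where the smallest adjusted p was 0.2, for Spry4. Over all genes, the 0 calls of edgeR's quasi-likelihood test became 133 with DESeq2, 34 without a filter on low counts, 6 with the length offset, and between 0 and 44 when single hearts were left out, the 44 without wild type replicate 5. The length offset without wild type replicate 5, chosen after seeing the data, gave 41. Of the 32 genes, 4 had an unadjusted p under 0.05. This number was 2 to 6 when single hearts were left out, in fits of 32 or 34 genes: 2 of 34 without mutant replicate 5 (Spry1, Spry4; 3.71% of all genes), 2 of 34 without mutant replicate 10 (Fgf12, Spry4; 3.44% of all genes) and 6 of 34 without wild type replicate 5 (Fgf12, Fgf2, Fgf6, Fgfr1, Spry1, Spry4; 12.2% of all genes). Of 475 refitted log2 fold changes, 457 kept their sign and 18, in 12 genes, did not; the causes were not tested. Leaving out single hearts gave -0.64 to 0.17 for Fgf10, -0.025 to 1.001 for Fgf8, -0.55 to 0.12 for Fgf16, -0.14 to 0.11 for Fgf11, -0.46 to 0.10 for Fgf14, -0.25 to 0.084 for Fgfr2, -0.022 to 0.21 for Frs2, -0.20 to 0.012 for Frs3, -0.026 to 0.12 for Spry2, -0.064 to 0.23 for Spred2 and -0.19 to 0.035 for Etv4. With Xist as a covariate Frs3 was at 0.007 and Etv4 at 0.031. With the length offset and without wild type replicate 5, Fgf16 was at 0.112, Spred2 at -0.047 and Etv5 at -0.001. By CPM in place of FPKM the receptor shares were 37.7% for Fgfr1, 20.9% for Fgfr2, 5.88% for Fgfr3 and 34.4% for Fgfrl1. No pair correlation passed an adjusted 0.05 with or without the length trend. No paired analysis was possible because no pairing of mutant with wild type hearts is given. With 3 hearts per group, the median 95% interval spans 0.392 to either side on the log2 scale.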
